A study of Mus musculus with 14 samples.

Results

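Complement is a set of blood and tissue proteins that mark microbes and damaged cells for uptake and call in inflammatory cells. The genes described here are 9 complement components and receptors other than C1q: C1ra, C2, C3, C4b, Cfb, Cfp, C3ar1, C5ar1 and Serping1. They were chosen by name from a table of 43432 mouse genes, with earlier results of these data known, and all 9 were present in it. All 9 also passed the filter on low values used for testing, which asks for 10 or more normalized counts in 2 or more libraries and left 17390 genes.

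The cells were sorted as SiglecF+CD11c+ from the lungs of 129S1 mice, males of 10 to 12 weeks of age, and split by their surface level of MHC class II (MHCII), the molecule that presents peptides to helper T cells. The mice had received either bleomycin (labelled 3 U/k), a DNA-damaging drug that injures the lung and is followed by fibrosis, or water, into the windpipe under anaesthesia. The 5 groups were MHCII-high and MHCII-low cells at 2 weeks after bleomycin, both populations again at 4 weeks (3 libraries per group) and, from water-treated mice, MHCII-low cells alone (2 libraries, labelled 1 and 3). Bleomycin could therefore be set against water in MHCII-low cells only. The labels name no engineered allele. The labels do not say that each replicate number is a separate animal, so p-values measure the spread between these samples, part of which may be technical. In bulk RNA, fewer cells of a type and less RNA per cell cannot be told apart.

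In the classical pathway, C1q binds a target and switches on the proteases C1r and C1s, which cut C4 and C2 into an enzyme that splits C3. In the alternative pathway, C3 deposited on a surface binds factor B and makes more of the same kind of enzyme, which properdin stabilises. The small fragments C3a and C5a released on the way act on their own receptors on myeloid cells, and lung macrophages both make several of these proteins and carry the receptors.

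All 10 markers of alveolar macrophages examined (Siglecf, Itgax, Marco, Mrc1, Fabp4, Chil3, Pparg, Car4, Ear1 and Ear2) were read in every library. Their summed level ran from 336701.9 normalized counts in a 2-week MHCII-high library to 586272.2 in a 2-week MHCII-low library. This sum rested mostly on Chil3 (163233.9 to 303546.8) and Mrc1 (84662.3 to 152536.7). The summed level of 4 MHCII genes was 1263.3 to 12328.8 in MHCII-low libraries and 90334.0 to 219860.9 in MHCII-high libraries, as the labels have it. Depth ranged from 15106415 to 88059578 recovered reads, and mitochondrial ribosomal RNA took 3.12% to 28.99% of them. Expression is given as the authors' normalized counts, in which libraries are scaled to each other. Statements that groups do not overlap describe few libraries per group and are no test. The share of all genes that separate in this way was not counted. Differences are log2 fold changes of normalized count + 1 with their standard error (SE), from limma fitted to all 14 libraries, with p-values adjusted over all 17390 genes by the Benjamini-Hochberg method and a threshold of 0.05. By this test 4 of the 10 alveolar macrophage markers were lower in MHCII-high than MHCII-low cells at 2 weeks (Siglecf, Marco, Car4 and Ear1). Of all 17390 genes, 101 were lower there. At 4 weeks 2 of the 10 markers were lower (Siglecf and Marco), where 93 of all 17390 genes were. In the mean of both times 6 of the 10 were lower, with Chil3 and Pparg added, where 2.21% of all genes were. None of the 10 was higher.

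The sequence just upstream of C3 and of C3ar1 is shown because C3 carries the only motif match found upstream of a member's start site and C3ar1 had the largest MHCII-high to MHCII-low difference of the 9. RefSeq promoter windows (build GRCm38.p6, 250 bases before the start site and 50 from it) were given for 5 of the 9 members, C1ra, C3, Cfp, C3ar1 and C5ar1. Of the 250 bases, only 34 in C1ra and 48 in C5ar1 lie before the deposited gene span. The other 216 and 202 lie inside it. The C3 stretch is chr17:57228137-57228386 and the C3ar1 stretch chr6:122856162-122856407, both on the reverse strand and printed 5′ to 3′ up to the annotated first base of the transcript. Capitals mark a match to the C/EBP core TTGCNNAA.
C3: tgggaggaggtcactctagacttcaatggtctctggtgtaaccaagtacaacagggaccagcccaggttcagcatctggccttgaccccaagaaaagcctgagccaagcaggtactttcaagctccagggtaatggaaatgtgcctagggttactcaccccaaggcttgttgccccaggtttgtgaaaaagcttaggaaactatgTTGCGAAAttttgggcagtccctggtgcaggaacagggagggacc
C3ar1: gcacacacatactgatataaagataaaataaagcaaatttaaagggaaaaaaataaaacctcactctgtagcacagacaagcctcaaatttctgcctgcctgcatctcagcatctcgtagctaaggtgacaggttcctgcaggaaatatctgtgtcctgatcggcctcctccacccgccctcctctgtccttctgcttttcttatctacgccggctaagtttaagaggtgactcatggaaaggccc
The C/EBP match of C3 lies 45 to 38 bases before the start site. A match to this core was present in 10.797% of the 32851 promoter windows of the table, both strands searched. The other motifs searched on both strands were GAS (TTCNNNGAA, in 8.298% of windows), ISRE (3.443%), the NF-kappaB decamer (8.459%) and the PU.1 core GAGGAA (28.276%). The C/EBP and PU.1 cores were added after the expression values had been seen. Matches past the start site were GAS, PU.1 and C/EBP in C1ra and PU.1 at 2 places in Cfp, and no match was found in the C3ar1 or C5ar1 window. ISRE and the NF-kappaB decamer matched none of the 5 windows.

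**Figure D1:**
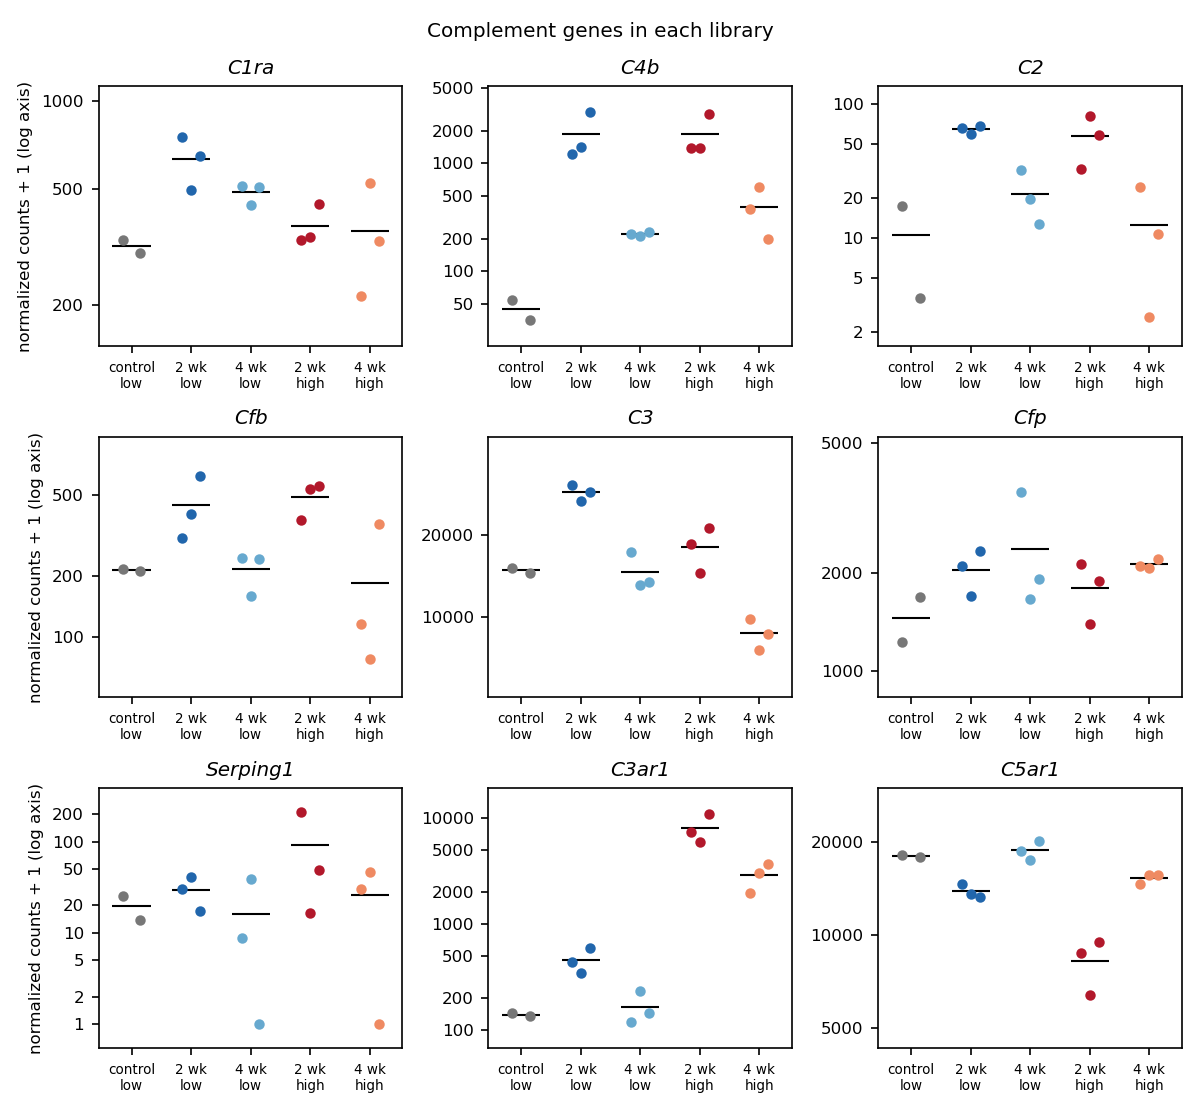
Normalized counts + 1 of the 9 complement genes in each library, on log axes that differ between panels; points are libraries, bars are group means, and the groups are MHCII-low control, MHCII-low and MHCII-high cells 2 and 4 weeks after bleomycin. C4b was at 34.4 and 53.4 in the controls and at 1226.1 or more in every 2-week library, and C3ar1 was highest in the MHCII-high cells.

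C4b, the classical-pathway component whose cleavage product attaches to the target surface, had the largest estimated response to bleomycin of the 9 genes. In control MHCII-low cells it was at 53.4 and 34.4 normalized counts. In MHCII-low cells 2 weeks after bleomycin it was at 1226.1, 1417.2 and 2960.1, and in MHCII-high cells of that time at 1380.5, 1377.0 and 2823.6. The 2-week libraries of both populations lay in 1 range, with replicate 3 the highest in each, and none came near the controls. At 4 weeks C4b was at 218.7, 210.8 and 231.4 in MHCII-low cells and at 374.6, 604.0 and 196.0 in MHCII-high cells, so every 4-week library lay between the controls and the 2-week libraries. C4b was 42.5-fold higher by group means in 2-week MHCII-low cells than in controls (log2 fold change 5.30 ± 0.44, limma adjusted p 2.0e-07), and this call held in every alternative run. C4b then fell from 2 to 4 weeks in MHCII-low cells (-2.97 ± 0.40, limma adjusted p 0.00019) and in MHCII-high cells (-2.30 ± 0.40, adjusted p 0.0064). Without replicate 3 of the 2-week MHCII-high cells the adjusted p of the latter fall was 0.057.

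At 4 weeks the MHCII-low cells still had 5.02 times the control mean of C4b, without overlap, but the difference did not pass the test (2.33 ± 0.44, limma adjusted p 0.057). It passed with DESeq2 on recovered reads (adjusted p 0.00031) and with a stricter filter on low values (0.037). MHCII-high and MHCII-low cells did not differ in C4b past the threshold in the mean of both times (0.35 ± 0.28, limma adjusted p 0.52). C4b lies at chr17:34728380-34743882 on the reverse strand. Its near-identical copy C4a was at 0 to 33.6 normalized counts in all libraries, and how reads shared by both genes were assigned is not given in the sources used here. C4 is also made by fibroblasts: the summed level of 8 fibroblast markers was 224.4 to 244.3 in controls and 544.5 to 826.6 in 2-week MHCII-low cells. It was 161.1 to 262.8 in 4-week MHCII-low, 131.9 to 956.6 in 2-week MHCII-high and 41.4 to 324.9 in 4-week MHCII-high cells. None of the 8 passed the test at 2 weeks against control, Col1a1 fell from 2 to 4 weeks in MHCII-low cells, and Lum was at 0 in 9 of the 14 libraries. The part of such cells in the C4b result was not tested.

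C3, the central component on which all pathways converge, was among the more abundant members, with group means of 1692 to 5605 normalized counts per kb of exon. It was at 15133.9 and 14566.5 normalized counts in the controls and at 30753.4, 26876.1 and 28857.6 in 2-week MHCII-low cells. All 3 treated libraries were above both controls. At 4 weeks the MHCII-low cells were at 17335.6, 13131.6 and 13439.0, a range that contains the controls. The rise at 2 weeks was 1.94-fold (log2 fold change 0.96 ± 0.18, limma adjusted p 0.0054) and the later fall was 1.97-fold (-0.99 ± 0.16, adjusted p 0.0020). Leaving out control replicate 1 or 3 moved the adjusted p of the rise to 0.062 or 0.096, where the remaining control library is assumed to vary like the other groups.

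C3 was lower in MHCII-high cells at both times. They were at 18632.6, 14479.0 and 21226.4 normalized counts at 2 weeks and at 9858.8, 7574.9 and 8668.4 at 4 weeks. At each time every MHCII-high library lay below every MHCII-low library, and the 4-week MHCII-high cells were the lowest of the 5 groups. The log2 fold change of MHCII-high against MHCII-low cells was -0.69 ± 0.16 at 2 weeks (limma adjusted p 0.023), -0.75 ± 0.16 at 4 weeks (adjusted p 0.014) and -0.72 ± 0.12 in the mean of both (adjusted p 0.00033). C3 fell from 2 to 4 weeks in MHCII-high cells as well (-1.05 ± 0.16, limma adjusted p 0.0038).

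The mean difference in C3 held in every alternative run, whereas the differences at single times did not. The 2-week call was lost without MHCII-low replicate 1 or 3 or MHCII-high replicate 1 or 2 (limma adjusted p 0.11, 0.056, 0.076 and 0.18), and the 4-week call without MHCII-low replicate 1 or MHCII-high replicate 2 (0.074 and 0.063). The share of mitochondrial ribosomal RNA was 3.42% to 18.3% in 2-week MHCII-low and 22.5% to 26.2% in 2-week MHCII-high libraries, and 3.12% to 23.1% and 8.12% to 29.0% at 4 weeks. With this share as a covariate the log2 fold change was -0.52 at 2 weeks (adjusted p 0.24) and -0.63 at 4 weeks (adjusted p 0.064). C3 lies at chr17:57203970-57228136 on the reverse strand.

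C3ar1, the G protein-coupled receptor for C3a, was the member with the widest gap between MHCII-high and MHCII-low cells. At 2 weeks it was at 7333.0, 5892.4 and 10970.3 normalized counts in MHCII-high cells and at 438.5, 345.5 and 594.7 in MHCII-low cells. At 4 weeks it was at 1958.4, 3040.6 and 3702.5 in MHCII-high cells and at 116.6, 232.4 and 141.8 in MHCII-low cells. The lowest MHCII-high library of any time was above the highest MHCII-low library of any time. C3ar1 was 17.5-fold higher by group means at 2 weeks (log2 fold change 4.12 ± 0.30, limma adjusted p 3.5e-08) and 17.7-fold higher at 4 weeks (4.15 ± 0.30, adjusted p 2.2e-08). Both calls and the mean of both times (4.14 ± 0.21, adjusted p 3.2e-11) held in every alternative run.

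C3ar1 also differed between bleomycin and water in MHCII-low cells, and between times in both populations. Control MHCII-low cells were at 142.2 and 134.3 normalized counts, below all 2-week MHCII-low libraries and inside the range of the 4-week ones. Its log2 fold change in 2-week MHCII-low cells against control was 1.69 ± 0.34 (limma adjusted p 0.0073), with an adjusted p of 0.075 or 0.11 without control replicate 1 or 3. From 2 to 4 weeks it fell by 1.51 ± 0.30 on the log2 scale in MHCII-low cells (limma adjusted p 0.012) and by 1.48 ± 0.30 in MHCII-high cells (adjusted p 0.020). The MHCII-low fall missed the threshold without 2-week replicate 3 or 4-week replicate 1 or 3 (limma adjusted p 0.097, 0.090 and 0.056). The MHCII-high fall missed it without 2-week replicate 1 or 3 or 4-week replicate 1 (limma adjusted p 0.069, 0.11 and 0.071). C3ar1 lies at chr6:122847138-122856161 on the reverse strand.

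The genes whose levels followed C3ar1 most closely over the 14 libraries were Ccr2, the receptor that draws monocytes to sites of injury (Pearson r 0.98), and Nav1, a microtubule-binding protein (0.98). These are the 2 highest of 10392 genes searched, given as a description. Ccr2 belongs to a list of 8 markers of monocyte-derived or interstitial macrophages, which also holds the 3 C1q genes and Itgam. As Ccr2 was picked for its likeness to C3ar1, the list is not independent of that likeness. The summed level of that list was 1089.1 to 1765.4 normalized counts in controls, 3581.2 to 6137.2 in 2-week and 1176.5 to 1720.8 in 4-week MHCII-low cells. It was 32256.2 to 42840.3 in 2-week and 15479.4 to 16718.5 in 4-week MHCII-high cells. For the list as for C3ar1, 2-week MHCII-high cells were highest, followed by 4-week MHCII-high and then 2-week MHCII-low cells. Of the 8 markers, 7 passed the limma test as higher in MHCII-high than MHCII-low cells at each time (2.87% and 2.5% of all genes passed in either direction), and 5 passed as higher in 2-week MHCII-low cells than in controls (1.48% of all genes). Ly6c2 was at 0 in 4 libraries and C1qa in 1. Sums of other lists were also higher in both MHCII-high groups than in 2-week MHCII-low cells. Alveolar type 2 markers summed to 11621.8 to 17379.2 in 2-week MHCII-high, 8888.8 to 15786.3 in 4-week MHCII-high and 5772.4 to 8195.8 in 2-week MHCII-low cells. The MHCII genes summed to 147467.5 to 219860.9, 90334.0 to 177768.2 and 3896.5 to 12328.8 in the same groups. The part of any such cells in the C3ar1 result was not tested.

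C5ar1, the receptor for C5a that draws neutrophils and macrophages to inflamed tissue, ran the other way. The controls were at 18113.9 and 17801.7 normalized counts. MHCII-high cells were at 8775.8, 6392.1 and 9506.4 at 2 weeks and at 14606.1, 15557.7 and 15616.9 at 4 weeks. MHCII-low cells were at 14643.9, 13587.7 and 13273.0 at 2 weeks and at 18659.6, 17407.1 and 20064.1 at 4 weeks. The 2-week MHCII-high libraries were the 3 lowest of all 14, and at each time every MHCII-high library lay below every MHCII-low library. C5ar1 was 1.68-fold lower in MHCII-high than in MHCII-low cells at 2 weeks (log2 fold change -0.77 ± 0.15, limma adjusted p 0.0056, and 0.062 without MHCII-high replicate 2). At 4 weeks it was 1.23-fold lower, which did not pass (-0.29 ± 0.15, adjusted p 0.38), and the mean of both times did (-0.53 ± 0.11, adjusted p 0.0030).

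In MHCII-high cells C5ar1 rose 1.86-fold from 2 to 4 weeks (log2 fold change 0.91 ± 0.15, limma adjusted p 0.0051), the only member that passed as a rise with time. In MHCII-low cells the same difference was 0.43 ± 0.15 and did not pass (limma adjusted p 0.33), although all 4-week libraries were above all 2-week libraries. Against control, 2-week MHCII-low cells were 1.30-fold lower, again without overlap and without passing (-0.38 ± 0.17, adjusted p 0.35). Whether the MHCII-high to MHCII-low difference itself changed with time was tested by the interaction, in which C5ar1 had 0.48 ± 0.21 (unadjusted p 0.037, limma adjusted p 0.83). C5ar1 lies at chr7:16246743-16259540 on the reverse strand. Its closest genes by level were Fabp1, a fatty acid-binding protein (Pearson r 0.94 over 14 libraries), and Rras2, a small GTPase (0.93). Neutrophils also carry C5ar1: 6 neutrophil markers summed to 1609.8 to 2705.3 normalized counts in controls and 9426.8 to 10218.3 in 2-week MHCII-low cells, with Cxcr2 and Mmp8 passing as higher among 5 tested. They summed to 2246.8 to 3659.8 in 4-week MHCII-low cells. In MHCII-high cells they summed to 6318.3 to 9646.8 at 2 weeks and 3159.7 to 4733.6 at 4 weeks, and Ly6g was at 0 in 11 libraries. The sums rested mostly on Mmp8 (913.4 to 5818.5 over all libraries) and Cxcr2 (505.1 to 4783.6). The other markers were lower: S100a8 at 76.3 to 396.5, S100a9 at 0 to 153.3 and Retnlg at 0 to 213.5. The part of such cells in the C5ar1 values was not tested.

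**Figure D2:**
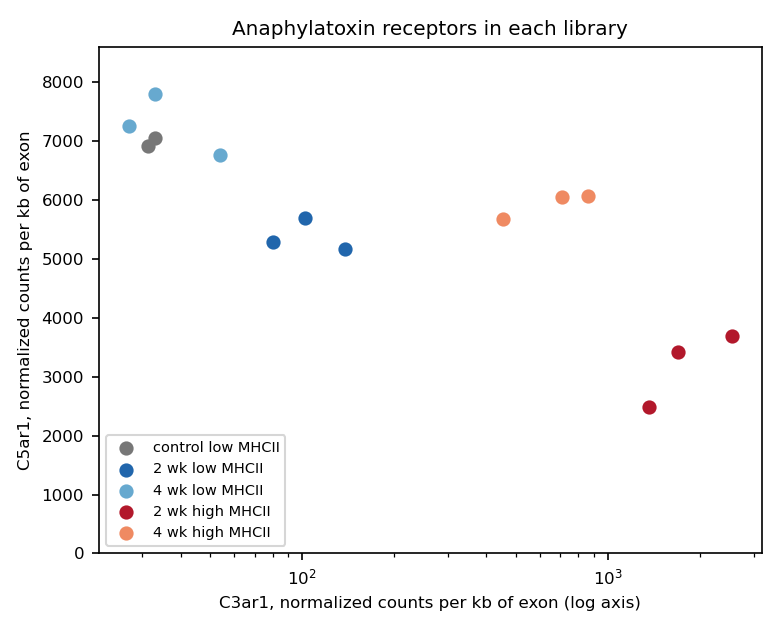
C5ar1 against C3ar1 in each library, both in normalized counts per kb of exon, with C3ar1 on a log axis and 1 colour per group. The 2-week MHCII-high libraries lie lowest for C5ar1 and farthest right for C3ar1, and the controls and 4-week MHCII-low libraries lie at the upper left.

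Per kb of exon, so that both receptors can be compared, C5ar1 was above C3ar1 in every library. The ratio of C5ar1 to C3ar1 was 213 and 222 in the controls, 37.4 to 65.9 in 2-week and 125 to 268 in 4-week MHCII-low cells. In MHCII-high cells it was 1.45 to 2.00 at 2 weeks and 7.07 to 12.5 at 4 weeks. The plot of the receptors shows the 2-week MHCII-high libraries as the place where the levels of both receptors came closest.

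C1ra, the protease that starts the classical cascade once C1q has bound, was at 333.4 and 301.3 normalized counts in controls. In MHCII-low cells it was at 756.2, 496.8 and 646.4 at 2 weeks and at 512.8, 441.2 and 507.5 at 4 weeks. In MHCII-high cells it was at 333.9, 342.4 and 443.1 at 2 weeks and at 214.4, 525.6 and 331.1 at 4 weeks. Both MHCII-low bleomycin groups lay above the controls without overlap, and 2-week MHCII-high cells lay below 2-week MHCII-low cells without overlap. None of these differences passed the test, and the share of all genes with such separation was not counted. The log2 fold change was 0.97 ± 0.35 for 2-week MHCII-low cells against control (limma adjusted p 0.21). For MHCII-high against MHCII-low it was -0.75 ± 0.31 at 2 weeks, -0.54 ± 0.31 at 4 weeks and -0.65 ± 0.22 in the mean of both (adjusted p 0.24, 0.45 and 0.083). The last passed with DESeq2 (adjusted p 0.048) and without 4-week MHCII-high replicate 2 (limma adjusted p 0.020). C1ra is at chr6:124512405-124523443 on the forward strand, and its copy C1rb reached at most 3.5 normalized counts.

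Serping1, the C1 inhibitor that blocks C1r and C1s, was low, with group means of 6.58 to 39.1 normalized counts per kb of exon, and uneven. It was at 24.2 and 12.9 normalized counts in controls, 29.1, 39.8 and 16.5 in 2-week and 7.7, 38.2 and 0 in 4-week MHCII-low cells. In MHCII-high cells it was at 209.4, 15.6 and 47.8 at 2 weeks and at 29.1, 45.5 and 0 at 4 weeks. All 5 groups overlapped their neighbours in order of mean, and 1 library (2-week MHCII-high replicate 1) stood far above the rest. The counts of 0 in replicate 3 of both 4-week groups allow up to 3.20 and 3.65 normalized counts (3 reads, counting error only). Its log2 fold change of MHCII-high against MHCII-low was 0.84 ± 1.00 in the mean of both times (limma adjusted p 0.69), and no comparison passed. The library highest in Serping1 also had the highest sum of 5 endothelial markers (6574.1, of which Vwf 4731.1, against 1718.6 to 4839.9 in the others). That sum was 1809.7 to 2398.0 in controls, 2944.3 to 4839.9 and 1718.6 to 2777.6 in MHCII-low cells at 2 and 4 weeks, and 3746.1 to 6574.1 and 3213.4 to 4209.6 in MHCII-high cells, with Cldn5 at 0 in 3 libraries. The same library also had the highest sums of mesothelial (268.1), alveolar type 2 (17379.2), T cell (395.2) and eosinophil (229.5) markers. The remaining marker lists had their highest sums in other libraries. Fibroblast markers summed to 707.5 in this library. They summed to 956.6 in 2-week MHCII-high replicate 3 and 826.6 in 2-week MHCII-low replicate 3, where Serping1 was at 47.8 and 16.5. Cdh5, a junction protein of endothelial cells and 1 of those 5 markers, was among the 2 genes closest to Serping1 (Pearson r 0.85 over 14 libraries, after Scn7a at 0.86). It was at 733.7 in 2-week MHCII-high replicate 1 and at 718.6 in 4-week MHCII-high replicate 2, where Serping1 was at 45.5. The part of any of these cells in the Serping1 values was not tested.

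C2, the partner of C4 in the classical C3-splitting enzyme, and Cfb, its counterpart in the alternative pathway, lie next to each other on chromosome 17 (C2 chr17:34862604-34898265, Cfb chr17:34856374-34862518, both reverse), near C4b. C2 was at 16.4 and 2.6 normalized counts in controls, at 64.9, 58.9 and 67.2 in 2-week and at 30.9, 18.6 and 11.7 in 4-week MHCII-low cells. In MHCII-high cells it was at 31.4, 80.3 and 57.3 at 2 weeks and at 22.9, 1.6 and 9.7 at 4 weeks. Every 2-week library lay above the controls and above every 4-week library. The estimates were large but imprecise, as the values rest on 1 to 122 reads, and none passed: 3.03 ± 1.08 for 2-week MHCII-low cells against control (limma adjusted p 0.20), -1.69 ± 0.97 from 2 to 4 weeks in MHCII-low cells (adjusted p 0.80) and -2.62 ± 0.97 in MHCII-high cells (adjusted p 0.21). MHCII-high and MHCII-low cells differed by -0.73 ± 0.68 in the mean of both times (limma adjusted p 0.59).

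Cfb was at 215.0 and 210.1 normalized counts in controls. MHCII-low cells had 306.5, 402.9 and 620.5 at 2 weeks and 243.5, 157.8 and 241.0 at 4 weeks, and MHCII-high cells 376.6, 534.9 and 552.6 at 2 weeks and 114.5, 76.9 and 357.8 at 4 weeks. As for C2, every 2-week MHCII-low and MHCII-high library exceeded the controls and the 4-week library values of its own population. None of its comparisons passed: 1.00 ± 0.50 for 2-week MHCII-low cells against control (limma adjusted p 0.43), -1.01 ± 0.45 from 2 to 4 weeks in MHCII-low cells (adjusted p 0.59) and -1.71 ± 0.45 in MHCII-high cells (adjusted p 0.070). Without 4-week MHCII-high replicate 3, the highest of its group, the last became -2.35 with an adjusted p of 0.0037. MHCII-high and MHCII-low cells differed by -0.17 ± 0.32 in the mean of both times (adjusted p 0.82). The annotation also holds the gene Gm20547 on the same strand, which shares 2246 of 2825 exon bases of Cfb and 1656 of 3872 of C2 and is listed at 0 in all libraries. Reads of C2, Cfb and Gm20547 may therefore have been split or set aside in counting, which is not given in the sources used here.

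Cfp, which encodes properdin, was at 1225.5 normalized counts or more in every library. It was at 1225.5 and 1683.1 normalized counts in controls, at 2096.5, 1692.7 and 2336.2 in 2-week and 3531.4, 1666.7 and 1913.8 in 4-week MHCII-low cells, and at 2123.5, 1393.4 and 1882.7 in 2-week and 2104.1, 2061.6 and 2209.1 in 4-week MHCII-high cells. Every group overlapped its neighbour in order of mean, from controls at the bottom to 4-week MHCII-low cells at the top. Its log2 fold changes against control were 0.49 ± 0.27 at 2 weeks and 0.64 ± 0.27 at 4 weeks (limma adjusted p 0.48 and 0.76, the latter with an unadjusted p of 0.027). They were 0.15 ± 0.24 and 0.26 ± 0.24 from 2 to 4 weeks in MHCII-low and MHCII-high cells, and -0.13 ± 0.17 for MHCII-high against MHCII-low in the mean of both times. The limma adjusted p-values of these were 1.0, 0.69 and 0.72. Cfp is on chrX:20925454-20931555, reverse strand.

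Counted over the 9 genes, 3 passed the test between MHCII-high and MHCII-low cells at 2 weeks (C3ar1 higher, C3 and C5ar1 lower), where 2.87% of all genes tested passed. At 4 weeks 2 passed (C3ar1 higher, C3 lower), where 2.5% of all genes did. In the mean of both times the same 3 as at 2 weeks passed, 1 higher and 2 lower, where 7.21% of all genes passed, 5.0% higher and 2.21% lower. The 6 members that did not pass at 2 weeks lay between -0.75 (C1ra) and 1.00 (Serping1), and the 7 at 4 weeks between -1.19 (C2) and 0.68 (C4b). The median log2 fold change of the 9 was -0.17 in the mean of both times, and that of all genes tested was 0.02.

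Against control, 3 of the 9 were higher in 2-week MHCII-low cells (C4b, C3 and C3ar1) and none was lower, where 1.91% of all genes passed, 1.48% higher and 0.426% lower. The median of the 9 was 0.97, that of all genes -0.09. In 4-week MHCII-low cells 0 of the 9 passed with limma, where 0.046% of all genes (8 genes) passed. At an unadjusted p of 0.05, 2 members, C4b and Cfp, were under the threshold, edgeR and limma voom on recovered reads called 0 of the 9, and DESeq2 called 1, C4b. Apart from C4b, the 4-week estimates lay between -1.42 (Serping1) and 1.33 (C2). Both comparisons use the same 2 control libraries.

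From 2 to 4 weeks, 3 of the 9 fell in MHCII-low cells (C4b, C3 and C3ar1), where 0.857% of all genes passed (149 genes). Of these 149 genes 130 fell and 19 rose, so most calls over all genes were falls too. In MHCII-high cells the same 3 fell and C5ar1 rose, where 1.07% of all genes passed (186 genes, of which 132 fell and 54 rose). The remaining C5ar1 and Serping1 estimates were 0.43 ± 0.15 and -1.99 ± 1.41 in MHCII-low cells, and C1ra and Serping1 had -0.15 ± 0.31 and -2.31 ± 1.41 in MHCII-high cells. In the interaction 0 of the 9 passed with limma, where 0.0% of all genes did. C5ar1 was the 1 member at an unadjusted p of 0.05 there, as with DESeq2 and limma voom, while edgeR had 0, and none of the 3 called a member. The other 8 lay between -0.92 (C2) and 0.66 (C4b).

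**Figure D3:**
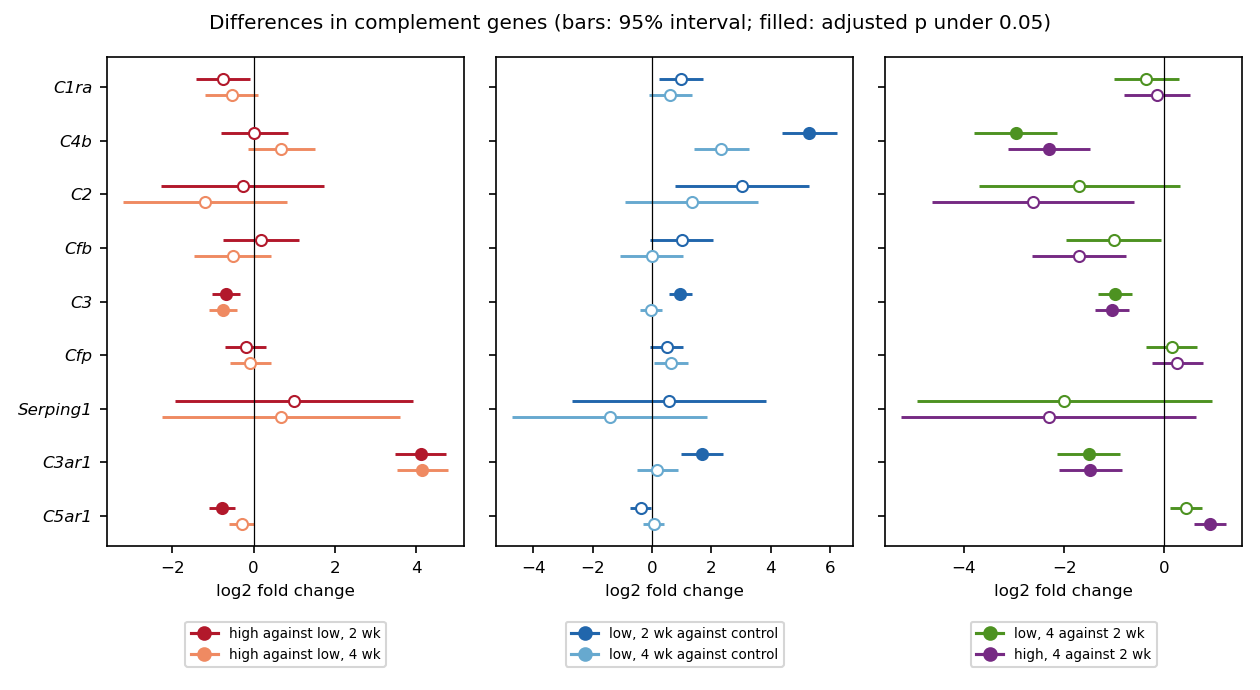
Log2 fold changes of the 9 genes with 95% intervals from limma, in 3 panels: MHCII-high against MHCII-low cells, MHCII-low cells against control, and 4 against 2 weeks. Filled points passed an adjusted p of 0.05. C3ar1 lies above 4 in the left panel at both times, and C4b is at 5.30 at 2 weeks and 2.33 at 4 weeks in the middle panel.

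The other genes of the pathway were taken as 4 lists of 43 genes in all, of which 24 passed the filter on low values. In the mean of both times, 8 of the 24 passed as higher and 1 as lower in MHCII-high cells, where 5.0% and 2.21% of all genes did. Among the 8, C1qa, C1qb, C1qc and Itgam also belong to the monocyte-derived or interstitial macrophage markers counted above. The median log2 fold change of the 24 was 0.49, that of all genes 0.02. Among 6 tested genes of initiation, 4 were higher: the C1q chains C1qa (5.68 ± 0.57), C1qb (5.08 ± 0.50) and C1qc (5.49 ± 0.38) and the lectin-pathway sensor Fcna (3.65 ± 0.72, limma adjusted p 0.0025). C1s1, the partner protease of C1r, did not exceed 22.4 normalized counts in any library. Among 5 tested downstream components, Hc, which encodes C5, the source of the C5ar1 ligand, was the 1 that passed (3.42 ± 0.45, adjusted p 3.4e-05), with 348.2 to 652.4 normalized counts in MHCII-high cells at 2 weeks, 202.4 to 763.8 at 4 weeks and no more than 102.9 in any MHCII-low library.

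Among 8 tested receptors, Itgam, the CD11b subunit of the receptor for inactivated C3b (2.77 ± 0.21), Cd93 (0.54 ± 0.13) and the C3d receptor Cr2 (2.50 ± 0.74) were higher in MHCII-high cells in the mean of both times. C1qbp was lower (-0.71 ± 0.20, adjusted p 0.036). Cr2 is known from B cells and from follicular dendritic cells, for which no markers were examined. The summed level of 5 B cell markers was 130.8 to 189.0 normalized counts in controls, 49.4 to 219.2 in 2-week and 40.5 to 2186.7 in 4-week MHCII-low cells, and 1204.1 to 1638.2 and 763.1 to 3798.4 in MHCII-high cells at 2 and 4 weeks. That of 7 markers of dendritic cells other than follicular ones was 76.7 to 249.7 in all MHCII-low libraries and 865.8 to 2114.8 in MHCII-high libraries. The part of any of these cells in these results was not tested.

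Against control, 5 of the 24 passed as higher in 2-week MHCII-low cells and none as lower, where 1.48% and 0.426% of all genes did: the 3 C1q genes, Itgam (1.75 ± 0.34) and Cd93 (1.57 ± 0.21). All but Cd93 were also counted above among the monocyte-derived or interstitial macrophage markers. From 2 to 4 weeks Itgam (-1.96 ± 0.30) and Cd93 (-1.60 ± 0.19) fell in MHCII-low cells. In MHCII-high cells C5ar2, the second receptor for C5a, rose (1.53 ± 0.32, limma adjusted p 0.021), as C5ar1 did, and the other 23 did not pass. C5ar2 was at 277.3, 396.5 and 489.1 normalized counts at 2 weeks and at 1413.2, 713.9 and 1286.5 at 4 weeks in these cells. All 4-week libraries were above all 2-week libraries.

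**Figure D4:**
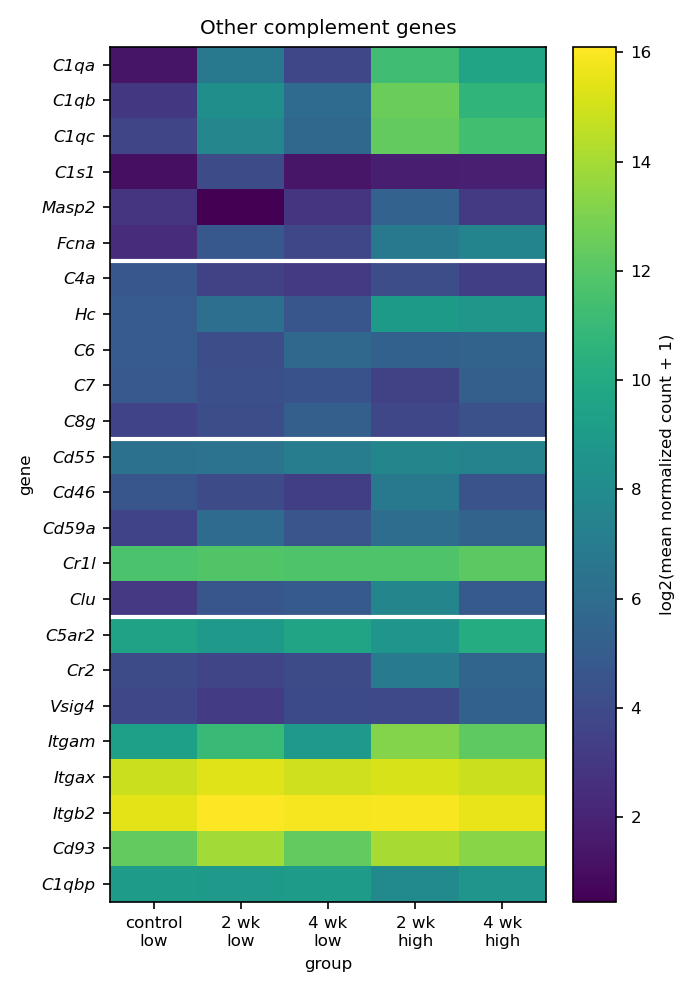
Level of the 24 tested other complement genes in the 5 groups, as log2 of the mean normalized count + 1; white lines separate, from the top, initiation genes, downstream components, regulators and receptors. C1qa, C1qb, C1qc, Hc and Itgam are brightest in MHCII-high cells, and Itgax and Itgb2 are bright in all groups.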

How the data were processed

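RNA-seq was done on 14 libraries of SiglecF+CD11c+ mouse lung cells, with mRNA amplified before tagmentation, per the labels' protocols. Per the file headers, the deposited table holds the authors' normalized counts per gene, a signal, with exon lengths used as deposited. STAR, DESeq2 and the build mm10 are named in the submitters' processing notes, and the counting program is not given in the sources used here. In each column 99.6% to 100.0% of the lower nonzero values were whole multiples of the worth of 1 read (within rounding of 0.05), which gave reads and depth. By chance 4.47% to 25.7% would be, and the largest values were not checked in this way. In control replicate 1 that worth is small (0.39), so its reads are the least sure. Counts of reads carry counting error and no molecular identifiers.

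Tested genes had 10 or more normalized counts in 2 or more libraries. The test was limma 3.58.1 (trend) on log2(value + 1), in a single fit of all libraries with a coefficient for each group. The code was tested on simulated data. On recovered reads edgeR 4.0.16 called 432 genes between MHCII-high and MHCII-low cells at 2 weeks, DESeq2 1.42.0 called 1055, and limma 499. Other alternatives were pseudocounts of 0.5 and 5, other filters, TMM scaling, voom, a replicate block, the mitochondrial share as covariate, only the groups compared, and each library left out. The genes named are all members and the called genes of 4 lists of other complement genes (at most 4 per list). The 2 genes closest by Pearson r, among those with a mean log2 of at least 6, are named for C3ar1, C5ar1 and Serping1. For the other members the single closest was Enpp1 for C4b (0.97), Grn for C3 (0.93), Lrrc8b for Cfb (0.91), Ptprs for Cfp (0.91), Csnk2b for C1ra (0.89) and Tns2 for C2 (0.86). C5ar2 and C1s1 and gene copies were named after their values were seen. From these lists 1 gene was left out of all counts and is not reported here. Members and lists were chosen with earlier results of these data known. Coordinates are as deposited and equal the GENCODE spans on GRCm38.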

Additional observations from a re-analysis of the deposited data

How the results depend on the processing

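Of 321 alternatives run on the 18 calls of members, 284 kept the call and the direction, 37 lost the call and 0 reversed it. Calls that none of these lost were C3ar1 between MHCII-high and MHCII-low cells at 2 weeks, at 4 weeks and in their mean, C3 and C5ar1 in that mean, and C4b at 2 weeks against control. Fitting only the groups compared leaves fewer samples for the spread: between MHCII-high and MHCII-low cells it called 1 member (2 weeks) and 1 member (4 weeks), then 1 at 2 weeks against control, 0 from 2 to 4 weeks in MHCII-low cells and 0 in MHCII-high cells. The mitochondrial share as covariate called 1 at 4 weeks between MHCII-high and MHCII-low cells. Against control at 4 weeks, DESeq2 and a minimum of 5 CPM in 2 libraries each called 1. Leaving out 1 library gave 1 to 3 calls at 2 weeks and 1 to 2 at 4 weeks between MHCII-high and MHCII-low cells, 1 to 3 at 2 weeks against control, and 2 to 5 from 2 to 4 weeks in MHCII-high cells. Why calls were lost or gained was not tested. C3ar1 from 2 to 4 weeks was also lost with voom in the MHCII-low population (adjusted p 0.29) and with no filter on low values in both (0.058 and 0.059), and at 2 weeks against control with voom (0.091). The 2-week C3 difference between the populations was lost with no filter too (0.058).

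Of 977 alternatives run on uncalled members, 57 had the other sign, none of them past the threshold. With the mitochondrial share, the MHCII-high to MHCII-low difference of Serping1 became -0.042 at 2 weeks and -0.037 in the mean of both times, C2 0.004 and Cfp 0.045 in that mean. With 1 library left out, the mean of both times ran from -0.49 to 0.064 for Cfb and from -0.24 to 0.029 for Cfp. The change from 2 to 4 weeks ran from -0.18 to 0.36 for Cfp in MHCII-low cells and from -0.47 to 0.17 for C1ra in MHCII-high cells. Voom moved the median of all genes between MHCII-high and MHCII-low cells at 2 weeks from 0.08 to -0.03.

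Same-numbered MHCII-high and MHCII-low libraries were not treated as pairs, since the labels do not say what a shared number means. The correlations of their deviations from the group means were 0.11, 0.07 and 0.02 at 2 weeks and 0.01, 0.03 and 0.02 at 4 weeks, and 2-week MHCII-high replicate 2 correlated more with MHCII-low replicate 3 (0.08) than with its own number. With a replicate block the counts of called members were the same except from 2 to 4 weeks in MHCII-high cells, where it was 5 in place of 4, Cfb being added (-1.71, adjusted p 0.048). C2 rests on 1 to 122 reads per library and Serping1 on 0 to 407.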
